A study of Homo sapiens with 6 samples.

Results

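The genes described are 9 components of MHC class I antigen presentation, chosen by name: HLA-B, HLA-C, HLA-E, B2M, TAP1, TAP2, TAPBP, ERAP1 and CALR. They are 9 of 22933 gene symbols in a deposited gene-level expression table, and they occupy 8 rows of it, because HLA-B and HLA-C stand in 1 row with a joint value. Each symbol occurs in only 1 row. No measured value entered the choice of row, which went by the number of RefSeq names in the row.

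RNA-Seq was performed on PC-3, an established human prostate cancer line derived from a bone metastasis, to ask which RNAs differ soon after induction of tristetraprolin (TTP, gene ZFP36). All 6 libraries came from cells that carry the pRetroX-Tet-On-Advanced vector, which supplies the rtTA2 transactivator, and that were selected with G418. A second retrovirus was pRetroX-Tight-pPGK-tdTomato in the 3 control samples (tdTom) and pRetroX-Tight-TTP-pPGK-tdTomato in the other 3 (TTP-tdTom), and tdTomato-positive cells were kept. All 6 samples, controls included, received doxycycline (Dox) at 300 ng/ml for 4 h, so that rtTA2, tdTomato and Dox were shared by both groups. In this system Dox lets rtTA2 drive the transgene from the Tight promoter, while the PGK promoter drives tdTomato without Dox. The cells were infected populations rather than clones, and they kept their own ZFP36 gene. The labels number the samples of a group but do not say whether these were separate cultures.

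The level of a row is given as FPKM, fragment counts divided by transcript length and library size, with 1 value for each group. The spread over the 3 samples of a group was not analysed here, so no SD, interval or p-value is given, and every difference is a description of 2 group values. The labels give 40000000 to 50000000 read pairs as the aim for each sample. FPKM values hold no counts, so how many fragments support a row was not analysed here. Symbols that reach 1 FPKM in each of the groups are called expressed, and a ratio of at least 1.5 in either direction is called past 1.5-fold.

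The targeted gene did not separate the groups. ZFP36 had an FPKM of 5.56 in tdTom and 5.54 in TTP-tdTom, and whether transgene fragments were counted in its row is not given in the sources used here. The names TTP-tdTom and tdTom therefore stand for the libraries so labelled. Epithelial and prostate lineage markers were expressed: KRT18 was at 98.2 and 91.5 FPKM in tdTom and TTP-tdTom, KRT8 at 20.9 and 19.1, and HOXB13 at 20.4 and 23.1. CDH1, which encodes E-cadherin, was at 0.119 and 0.390. Of 10 leukocyte markers 8 were below 1 FPKM in both groups, PTPRC and CD3E among them, and the list summed to 8.11 FPKM in tdTom and 8.66 in TTP-tdTom, mostly LYZ. Of 7 stromal and endothelial markers 5 were below 1 in both groups, and their sums were 5.98 and 7.93.

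MHC class I molecules display peptides from inside the cell to CD8+ T cells. A heavy chain (HLA-B, HLA-C or HLA-E) pairs with the light chain beta-2 microglobulin, encoded by B2M. Peptides made by the proteasome enter the endoplasmic reticulum through the TAP1-TAP2 transporter, are trimmed by the aminopeptidase ERAP1, and are loaded with the help of tapasin (TAPBP) and calreticulin (CALR), a chaperone that binds sugar chains of new glycoproteins. HLA-E presents mainly leader peptides of other class I molecules and is read by natural killer cells. Tumour cells often carry less class I at the surface, and interferons raise most of these genes. TTP binds AU-rich elements, with UAUUUAU as a preferred site, in the 3′UTRs of mRNAs and promotes their decay.

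The promoters of 5 members hold a core of the interferon response element, which is shown because interferon control is a known common trait of this pathway. The letters GAAANNGAA were sought on both strands of the RefSeq promoter entries (GRCh38.p14, 250 bases before to 50 bases after the start site). They occur in 8.29% of 27305 promoters, and in 5 of the 8 members with an entry. HLA-E has no entry. The windows, read 5′ to 3′ on the strand of the gene, are B2M at chr15:44711366-44711394 on the plus strand, TAP1 at chr6:32853816-32853844, TAP2 at chr6:32838779-32838807 and TAPBP at chr6:33314077-33314105 on the minus strand, and ERAP1 at chr5:96807924-96807952 on the minus strand. Capitals mark the match, and in B2M, TAP1 and TAPBP 2 matches that overlap.
B2M: actctaaGAAAAGGAAACTGAAaacggga
TAP1: ggccgctTTCGATTTCGCTTTCccctaaa
TAP2: ctggggaagcGAAAGCGAAagctgcccga
TAPBP: tttggagGAAAGTGAAAGTGAAaggagga
ERAP1: gggctccactTTCACTTTCggtcctgggg
In B2M the match begins at -144 from the start site, in TAP1 at -133, in TAP2 at -58 and in TAPBP at -20. In ERAP1 it lies at 4, just past the start. A match is a description of these letters and not a binding site.

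The heavy-chain promoters of HLA-B and HLA-C share a CCAAT box in nearly the same surroundings. The letters CCAAT, sought on both strands, occur in 35.7% of the 27305 promoters and in 6 of the 8 members, namely HLA-B, HLA-C, B2M, TAP1, ERAP1 and CALR. In both HLA-B (chr6:31357219-31357247, minus strand, GRCh38.p14) and HLA-C (chr6:31272132-31272160, minus strand) a copy begins at -56, with CCAAT in capitals.
HLA-B: tatctagagaagCCAATcagcgtcgccgc
HLA-C: gttctagagaagCCAATcagcgtctccgc
The cyclic AMP response element TGACGTCA, also sought on both strands, is in 1.98% of all promoters and in 0 of the 8, which says only that these exact letters are not in these windows.

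The TTP heptamer, written TATTTAT in DNA letters, occurs in the longest annotated 3′UTR of 3 members (GENCODE release 29). These are TAP1, with 1 copy at position 344 of 370 bases, TAPBP, with 1 copy at position 621 of 2066 bases, and TAP2, with 2 overlapping copies from position 3199 of 3491 bases. Capitals mark the copies.
TAP1: gttcttgaTATTTATaataaaat
TAP2: aaatatatTATTTATTTATttaaataa
TAPBP: gctatcaaTATTTATggtactag
Of 19127 genes with a 3′UTR, 31.1% hold at least 1 copy. B2M has no heptamer and 6 of the shorter pentamer ATTTA in 1285 bases, and ERAP1 has no heptamer and 12 pentamers in 2390 bases. HLA-E has 2 pentamers in 1459 bases. HLA-B, HLA-C and CALR, with 3′UTRs of 429, 420 and 576 bases, have neither.

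The class I genes were expressed in both groups, and B2M alone among them was past 1.5-fold. It was at 62.3 FPKM in tdTom and 41.0 in TTP-tdTom. The other 8 members, on 7 rows, were at 83.5% to 98.0% of the tdTom value. All 9 members had a log2 ratio of TTP-tdTom over tdTom below 0, and so did 81.2% of the 12032 expressed symbols. The count of 1 of 9 members lower by 1.5-fold, or 11.1%, stands beside 22.4% of expressed symbols, and 0 members were higher by 1.5-fold, beside 1.07%. At 2-fold 0 members were called in either direction, against 7.92% of expressed symbols lower and 0.324% higher.

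Relative to the whole table the members lay on the upper side. The median log2 ratio was -0.24 over all expressed symbols and -0.12 over the members, and 7 of the 9 members, on 6 of the 8 rows, were above the table median. Centring on that median moves every ratio by 0.24, so that 7 members are then above 0 and 2, B2M and CALR, below it, with a range of -0.36 to 0.21. Without centring the range was -0.61 to -0.03. The sign of each member other than B2M and CALR therefore flips with the scaling, and B2M is then no longer past 1.5-fold.

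**Figure D1:**
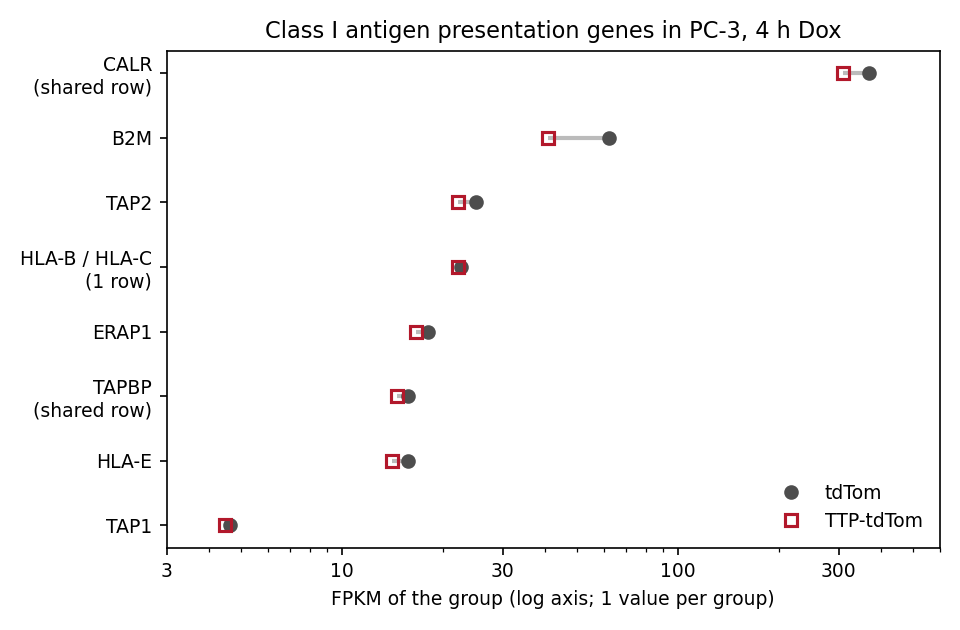
FPKM of the 8 member rows in tdTom (filled circles) and TTP-tdTom (open squares), 1 value per group, on a log axis; no replicate error can be drawn. The levels run from TAP1 at 4.62 in tdTom to CALR at 369.8, and the gap between groups on the log axis is widest for B2M, at 62.3 and 41.0.

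**Figure D2:**
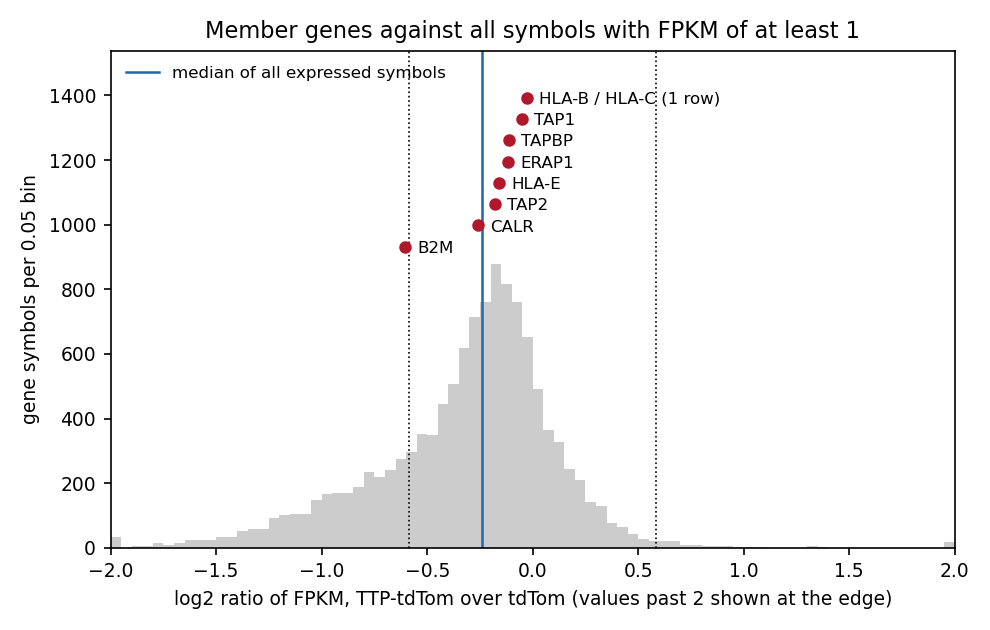
Histogram of log2 ratios of FPKM, TTP-tdTom over tdTom, for the 12032 expressed symbols, with the member rows as points placed above it (their height has no meaning). Dotted lines mark 1.5-fold and the blue line the median of -0.24; B2M, at -0.61, sits left of the lower dotted line, and 6 of the 8 rows sit right of the median.

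The rows kept the same order of level in both groups. From high to low it was CALR, B2M, TAP2, the HLA-B and HLA-C row, ERAP1, TAPBP, HLA-E and TAP1. Neighbours in this order were close in several places: TAPBP and HLA-E were both at 15.7 FPKM in tdTom, and TAP2 and the HLA-B and HLA-C row were both at 22.1 in TTP-tdTom. Whether such neighbours differ beyond the spread over samples was not tested. The highest row was 80.0-fold above the lowest in tdTom and 69.3-fold in TTP-tdTom.

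The classical heavy chains HLA-B and HLA-C, which present peptides to CD8+ T cells, were nearly level between the groups. Their joint row (chr6:31236526-31324989, GRCh37, as the table gives it) was at 22.5 FPKM in tdTom and 22.1 in TTP-tdTom, which is 98.0% and a log2 ratio of -0.03. This was the highest ratio of the 8 rows, and 78.0% of expressed symbols had a lower one. The coding sequences of HLA-B and HLA-C are identical at 92.6% of 1089 aligned bases, and how much of the joint value belongs to which gene cannot be told from the table. Runs of 75 bases that also occur in a transcript of another gene were 0 of 1825 in HLA-B and 1.72% in HLA-C.

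HLA-E, the ligand of the CD94-NKG2A receptor of natural killer cells, was at 15.7 FPKM in tdTom and 14.1 in TTP-tdTom. That is 89.6% of the control value and a log2 ratio of -0.16, with 61.5% of expressed symbols lower. Its row spans chr6:30201816-30462773, and 5 other rows have the same coordinates, among them those of HCG18, RPP21 and TRIM39. The table thus places HLA-E in an assembled stretch far longer than the gene, and the coordinates are those of the stretch. HLA-E is identical to HLA-B at 86.9% of 1075 aligned coding bases and to HLA-C at 86.7% of 1077. The HLA-B and HLA-C row was 1.44-fold above HLA-E in tdTom and 1.57-fold in TTP-tdTom.

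B2M encodes the light chain that every classical class I molecule needs to reach the surface. Its row (chr15:45003685-45010357, GRCh37) has coordinates of its own and carries no other symbol. The 62.3 FPKM in tdTom and 41.0 in TTP-tdTom give a difference of -21.4 FPKM, a log2 ratio of -0.61 and a control value 1.52-fold that of TTP-tdTom, just past the 1.5-fold line at a log2 of 0.58. Of expressed symbols, 21.5% had a still lower ratio. In bulk RNA, fewer cells that express a gene and less of its RNA per cell cannot be told apart.

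The ratio of light to heavy chain was lower in TTP-tdTom. B2M was 2.77-fold above the HLA-B and HLA-C row in tdTom and 1.86-fold in TTP-tdTom, a difference of -0.58 on the log2 scale that no scaling of the groups alters. Against HLA-E it was 3.97-fold in tdTom and 2.91-fold in TTP-tdTom, a log2 difference of -0.45. B2M was above these heavy-chain rows in either group and lower than the row of HLA-F and HLA-G, at 210.1 FPKM in tdTom and 217 in TTP-tdTom. That row also holds a further symbol, so its value is a joint one. These ratios rest on 1 value per group and have no error.

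TAP1 and TAP2 form the transporter that brings peptides into the endoplasmic reticulum, and both were within 1.5-fold. TAP1 (chr6:32808494-32821748) was the lowest member at 4.62 FPKM in tdTom and 4.46 in TTP-tdTom, with a log2 ratio of -0.05. TAP2 (chr6:32788778-32806547) was at 25.0 and 22.1, with a log2 ratio of -0.18. TAP2 was thus 5.42-fold above TAP1 in tdTom and 4.96-fold in TTP-tdTom on the FPKM scale. Of TAP2's runs of 75 bases, 32.3% also occur in a transcript of another gene (0.203% for TAP1). Whether those transcripts lie elsewhere in the genome was not examined, so whether reads of TAP2 could be split is not known.

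PSMB8 and PSMB9, neighbours of the transporter genes, encode catalytic subunits of the immunoproteasome, which cuts proteins into peptides suited to class I. PSMB8, whose row has the coordinates of the TAP1 row, was at 10.4 FPKM in tdTom and 10.7 in TTP-tdTom. PSMB9 was at 3.39 and 2.30, with a log2 ratio of -0.56 that is within 1.5-fold. TAP1 was 1.36-fold above PSMB9 in tdTom and 1.93-fold in TTP-tdTom, a log2 difference of 0.50, both at low FPKM.

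Tapasin and calreticulin belong to the peptide-loading complex. TAPBP, which bridges TAP and the empty class I molecule, had 15.7 FPKM in tdTom and 14.5 in TTP-tdTom and a log2 ratio of -0.11, in a row (chr6:33267307-33285719) that it shares with ZBTB22. CALR had by far the highest values, 369.8 and 309 FPKM, with only 169 symbols higher in tdTom. Its log2 ratio of -0.26 was next to the table median, and 47.7% of expressed symbols were lower. The CALR row (chr19:13048200-13064457) also carries a further symbol, so its value is that of the joint row.

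Other proteins that act with CALR were set against it in each group. CALR was 3.25-fold above calnexin (CANX) in tdTom and 3.21-fold in TTP-tdTom. Against PDIA3, the disulphide isomerase of the loading complex, it was 2.43-fold and 2.51-fold. CALR over TAPBP was 23.5-fold in tdTom and 21.2-fold in TTP-tdTom.

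ERAP1, the aminopeptidase that trims peptides to class I length, was at 18.0 FPKM in tdTom and 16.6 in TTP-tdTom, a log2 ratio of -0.12. Its row (chr5:95997474-96149848) has the coordinates of 3 rows of CAST, the calpain inhibitor gene next to it. ERAP2, the related aminopeptidase, was at 7.61 and 5.52 FPKM, with a log2 ratio of -0.46. The ratio of ERAP1 to ERAP2 was 2.37 in tdTom and 3.02 in TTP-tdTom.

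Transcript GC content moved with the ratio across the table, and the members spread over its range. Of the expressed symbols, 10385 (86.3%) were matched by name to a GENCODE transcript, all 9 members included. The decile of lowest GC content (28.6% to 38.3%) had a median log2 ratio of -0.77, with 64.1% of its symbols lower by 1.5-fold, and the decile of highest GC content had -0.09, with 2.69% lower. The median GC content was 54.8% over the members and 47.7% over the matched symbols. Which part GC content has in any member's ratio was not tested.

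B2M and ERAP1 have nearly the same GC content, 39.4% and 39.7%, and fall in the same decile. Its median log2 ratio was -0.57, and 49.2% of its symbols were lower by 1.5-fold. B2M lay -0.03 from that median and ERAP1 0.46 above it. The other members had 49.1% GC (TAP2) to 60.0% (HLA-C), in deciles whose medians ran from -0.20 to -0.11. CALR, with 53.9%, was -0.11 from its decile's median of -0.15. Of the 9 members, 6 were closer to 0 than the median of their decile, HLA-B and HLA-C through their joint row. TAP2 and TAPBP were closer by only 0.02 and 0.0031.

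**Figure D3:**
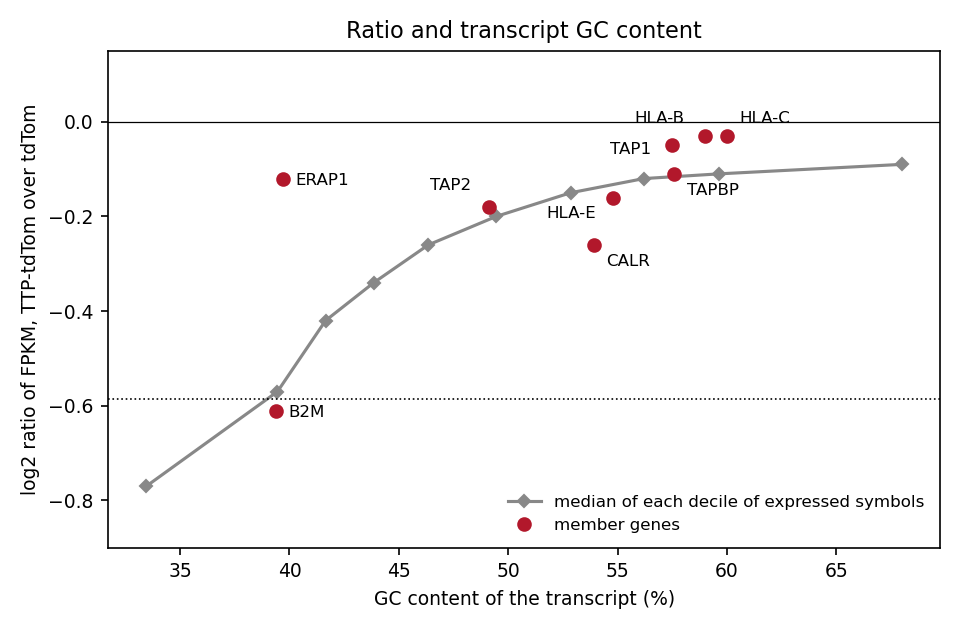
Log2 ratio of FPKM, TTP-tdTom over tdTom, against GC content of the transcript (%) for the 9 members (red) and the median of each GC decile of 10385 matched symbols (grey diamonds at the middle of the decile's range). The dotted line marks 1.5-fold lower; B2M lies at the grey line, ERAP1 at the same GC content lies 0.46 above it, and the remaining members lie near it.

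The members with and without the TTP heptamer overlapped in their ratios. TAP1 and TAPBP, with 1 copy, had log2 ratios of -0.05 and -0.11, where the 2179 expressed symbols with 1 copy had a median of -0.36 and 31.9% lower by 1.5-fold. TAP2, with 2 copies, had -0.18, where the 1624 symbols with 2 or more copies had a median of -0.57 and 49.1% lower. B2M, past 1.5-fold, has 0 copies, and of the 6582 symbols with none 13.3% were lower. The median of that last class was -0.18. The number of copies was not separated here from 3′UTR length or GC content.

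Of the members, 6 on 5 rows lie within one stretch of chromosome 6, and these had log2 ratios of -0.18 to -0.03. The other 3, B2M, ERAP1 and CALR, ran from -0.61 to -0.12. Between the HLA-E and TAPBP rows (chr6:30201816-33285719, 3084 kb) there were 83 other expressed symbols on 70 rows, with a median log2 ratio of -0.15. ZBTB22 is among them and has the value of the TAPBP row. Of the 83 symbols, 6 (7.23%) were lower by 1.5-fold and 0 higher, beside 22.4% and 1.07% of all expressed symbols. The median GC content of the 75 matched ones was 56.1%, against 47.7% over all, and its part in this low share was not tested.

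**Figure D4:**
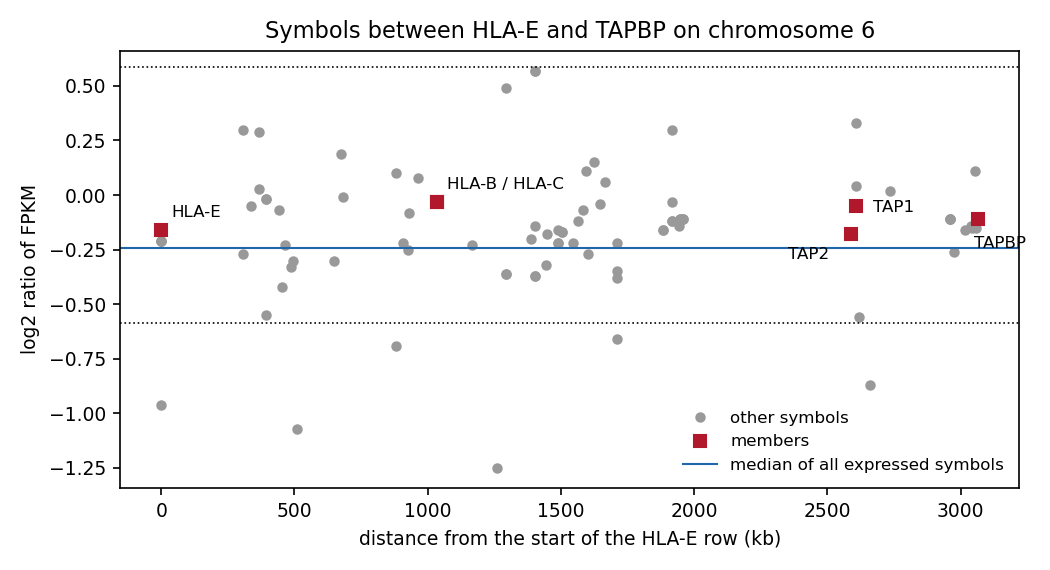
Log2 ratio of FPKM, TTP-tdTom over tdTom, against distance from the start of the HLA-E row (kb) for the members (red squares) and 83 other expressed symbols (grey circles) of the chromosome 6 stretch. The circle of ZBTB22 lies at the TAPBP square, since they share a row. Dotted lines mark 1.5-fold and the blue line the median of all expressed symbols, -0.24; the member squares lie between -0.18 and -0.03, above the blue line, and 6 grey circles lie under the lower dotted line.

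The remaining genes of the pathway were read from name lists, in which a symbol counts once it reaches 1 FPKM in either group and is not listed at 0 in the other. By that filter 22.8% of 13004 symbols were lower by 1.5-fold and 3.90% higher. Among 6 class I molecules, on 4 rows, B2M was the only one past 1.5-fold. The list's median was -0.03, with a joint row counted once for each of its symbols. HLA-F and HLA-G, with values from 1 row that holds a further symbol, had a log2 ratio of 0.04. For peptide transport and loading 0 of 10 genes were past 1.5-fold in either direction, with a median of -0.22. For the immunoproteasome and its activators it was 0 of 7, with a median of -0.18.

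Peptide trimming and supply had 2 of 9 genes lower and 0 higher, beside 22.8% and 3.90% of all symbols so counted. The list's median log2 ratio was -0.31. LNPEP, an endosomal aminopeptidase, was at 6.90 FPKM in tdTom and 3.72 in TTP-tdTom, a log2 ratio of -0.89. TPP2, a cytosolic tripeptidyl peptidase, was at 17.3 and 11.3, a log2 ratio of -0.62. ERAP1, in the same list, was within 1.5-fold.

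The regulators of class I transcription had 6 of 21 genes lower and 1 higher, beside 22.8% and 3.90% of all symbols so counted. The list's median was -0.36. ATF1, a factor of the cyclic AMP response element, had the largest difference, from 37.2 FPKM in tdTom to 10.9 in TTP-tdTom, a log2 ratio of -1.77. NFYB, a subunit of the factor that binds CCAAT boxes, was at 7.78 and 3.64, and RFX5, which binds the X box of MHC promoters, at 3.72 and 2.06. NLRC5, the transactivator of class I genes, was the higher one, at 0.545 in tdTom and 1.24 in TTP-tdTom, and it was counted only because it reached 1 FPKM in TTP-tdTom. Among the 20 regulators that reach 1 FPKM in each group, 6 were lower and 0 higher, beside 22.4% and 1.07% of expressed symbols.

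IRF1, which binds the interferon response element, is named because of its value, chosen after it was seen. It was at 16.7 FPKM in tdTom and 22.7 in TTP-tdTom, a log2 ratio of 0.45 that is within 1.5-fold. IRF2, of the same list, was at 3.55 and 2.62, a log2 ratio of -0.44. IRF9 and STAT2 had log2 ratios of -0.07 and 0.13, and these genes too are named after their values were seen. The members with GAAANNGAA in the promoter (B2M, TAP1, TAP2, TAPBP and ERAP1) had log2 ratios of -0.61, -0.05, -0.18, -0.11 and -0.12. Those with an entry and without these letters (HLA-B, HLA-C and CALR) had -0.03 for the joint row and -0.26.

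**Figure D5:**
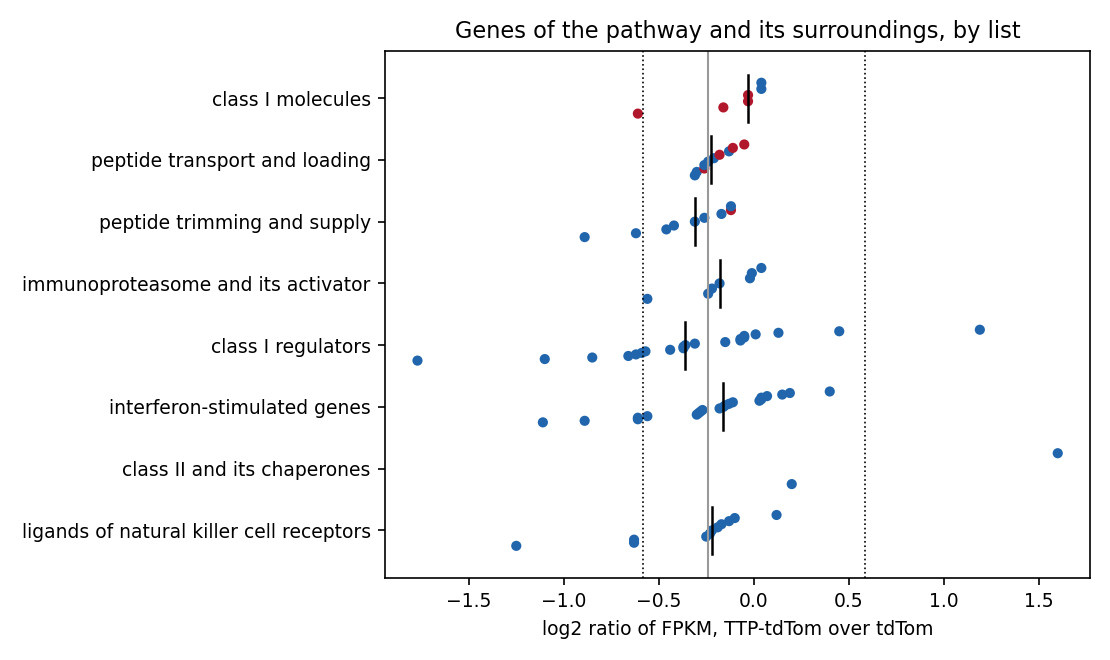
Log2 ratio of FPKM, TTP-tdTom over tdTom, for each counted gene of the 8 pathway lists; members are red, other genes blue, and black bars mark the median of lists with more than 2 genes. Dotted lines mark 1.5-fold and the grey line the median of all expressed symbols, -0.24; the regulators spread most widely to the left, down to ATF1 at -1.77, while the loading genes all lie between the dotted lines.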

How the data were processed

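RNA-Seq libraries of 3 tdTom and 3 TTP-tdTom samples of PC-3 were strand-specific. According to the study's methods and the submitters' processing notes, reads were aligned with TopHat2 2.0.13 to Hs37D5 (GRCh37 with decoys) and assembled, quantified and compared with Cufflinks 2.2.1. The authors' deposited gene-level table holds 1 FPKM value per group in each of 406165 rows, of which 30202 carry a gene symbol. The authors pooled the samples of a group in that value. Their columns of fold change, test statistic, p-value, q-value and calls were not used, and 0 value columns were of no known sample.

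A symbol was represented by the row with most RefSeq names, then the highest FPKM. Ratios were taken without a pseudocount. Symbols that reached 1 FPKM in each group were counted as expressed (12032 symbols, 11478 rows). For lists, 1 FPKM in either group and no value at 0 were required. The design allowed for values per sample, and the fits foreseen for these could not be run, so no test was made. The members and lists were chosen with earlier results of these data known.

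Genes named were all members, ZFP36, PSMB8, PSMB9 and, of each list, symbols past 1.5-fold, up to the 4 largest and the 2 highest in FPKM. A few genes of this rule are not reported here. Genes that a member is set against and marker genes are named beside them. 3′UTRs, GC content and shared runs of 75 bases came from GENCODE release 29 and promoters from RefSeq (GRCh38.p14), matched by symbol. Coordinates of table rows are GRCh37 as deposited. Alternatives were pseudocounts, scaling, the choice of row, the fold and the minimum FPKM. Python 3.11.15 with numpy 2.4.6, pandas 2.3.3, biopython 1.88 and matplotlib 3.10.9 was used.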

Additional observations from a re-analysis of the deposited data

Results flagged for a closer look

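Inside the stretch of the HLA-B and HLA-C row the table has a row without a gene symbol, with the same coordinates (chr6:31236526-31324989, GRCh37), that was listed at 0 in tdTom and at 2.12 FPKM in TTP-tdTom. It was singled out because a value appears only in TTP-tdTom, in a row that no comparison used. Such rows were common in both directions: of 375963 rows without a symbol, 41931 (11.2%) were listed at 0 in tdTom and at 1 FPKM or more in TTP-tdTom, and 35175 (9.36%) the other way round.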

How the results depend on the processing

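The median log2 ratio of the members, -0.12, was -0.11 with a pseudocount of 0.1 or 1, -0.06 after rescaling both groups to the same FPKM sum, -0.14 with each row counted once (an alternative chosen after seeing the data), and 0.13 after centring. The count of members lower by 1.5-fold went from 1 to 0 after centring, after rescaling and at 2-fold, as the B2M ratio became -0.36, -0.55 and, at 2-fold, stayed -0.61. Rescaling put 3 members above 0. The largest move of a member with a pseudocount was 0.01, to 2 decimals, and the choice of row moved none, since each symbol has 1 row. The background of 22.4% lower was 7.92% at 2-fold and 12.9% after centring (3.04% higher). Over all symbols above 0 in both groups it was 20.0% lower and 13.1% higher, against 1.07% higher among expressed symbols. After centring, the number of lower genes was 0 of the class I molecules, 1 for trimming and supply, 3 of the regulators (with 2 higher), 2 of the interferon-stimulated genes (with 1 higher) and 1 of the natural killer ligands. Among genes that reach 10 FPKM in either group it was 1 for trimming and supply, 2 of the regulators, 1 of the interferon-stimulated genes and 1 of the natural killer ligands, as fewer genes were counted. Counting list genes only where each group reaches 1 FPKM, also chosen after seeing the data, moved no number of lower genes by over 1.5 times. The median of the chromosome 6 neighbours was -0.14 among those that reach 10 FPKM in each group. No paired analysis was possible because the table holds 1 value per group, and leaving out single samples was not run for the same reason. The labels give only the read pairs aimed for, so no counting interval is given for low values such as TAP1.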

Other observations

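Interferon-stimulated genes, a list that includes PSMB8 and PSMB9, had 4 of 21 counted genes lower by 1.5-fold and 0 higher, with a median log2 ratio of -0.16. DDX60, named after its values were seen, was left out of this count because it was listed at 0 in tdTom, and it was at 5.50 FPKM in TTP-tdTom. OAS3, a sensor of double-stranded RNA, was at 18.9 FPKM in tdTom and 12.3 in TTP-tdTom. IFIT2, an antiviral protein, was at 4.94 and 3.24, and the lowly expressed IFI27 and IFITM1 were at 1.63 and 0.758 and at 1.99 and 1.08. IFI27 was counted only through its tdTom value, and 3 of the 20 genes that reach 1 FPKM in each group were lower. The highest member of the list, ISG15, a ubiquitin-like modifier named after its values were seen, was at 121 and 112. PC-3 had little class II: 10 of 12 class II genes and chaperones were below 1 FPKM in both groups, CD74 and CIITA among them, and HLA-DPB1 was at 0.361 in tdTom and 1.09 in TTP-tdTom, counted only through the latter value. The highest gene of the list was IFI30, a lysosomal thiol reductase that interferon-gamma induces, at 11.7 and 13.4, and it too is named after its values were seen. The background for these counts is 22.8% lower and 3.90% higher, and 22.4% lower where each group reaches 1 FPKM.

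Among surface ligands of natural killer and related receptors 3 of 11 counted genes were lower by 1.5-fold and 0 higher. By the same filter 22.8% of all symbols were lower and 3.90% higher. The median of the ligands was -0.22, and that of all symbols so counted was -0.23. MICB, a stress-induced ligand of NKG2D whose gene lies in the same chromosome 6 stretch as HLA-B, was at 24.5 FPKM in tdTom and 10.3 in TTP-tdTom, a log2 ratio of -1.25. ULBP2, another NKG2D ligand, was at 2.35 and 1.51. CD274, which encodes PD-L1 and binds PD-1 rather than a natural killer receptor, was at 9.93 and 6.43. HLA-E, the ligand of NKG2A, was within 1.5-fold.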
